A study of Mus musculus with 6 samples.

Results

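Chemokines and their receptors were followed across 6 microarrays of DR4 mouse embryonic fibroblasts, a cell type grown as a feeder layer under embryonic stem cells. A gene was taken in if a probe set, the group of short oligonucleotides that measures a transcript, carried its symbol alone and that symbol was a numbered Ccl, Cxcl, Cx3cl, Xcl, Ccr, Cxcr or Cx3cr name, Ppbp or Pf4. The rule found 51 of the 18193 genes named in this way, through 79 of 45137 probe sets. The Affymetrix MOE430A array held 67 of the probe sets (50 genes) and the MOE430B array 12 (10 genes), and 9 genes were on both. They comprised 35 ligands and 16 signalling receptors. Another 4 MOE430A probe sets of the family matched several genes (of Ccl19, Ccl21 and Ccl27) and were left out.

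The study hybridised total RNA of the cells to both array types, 3 replicates on each, as a feeder-cell control for the lines J1, R1 and V6.5 of embryonic stem cells. DR4 is a mouse strain that carries drug resistance genes. The fibroblasts came from embryos at day 15, and no treatment or passage is given in the labels. All samples were grown in D-MEM with 15% heat-inactivated serum, antibiotics, beta-mercaptoethanol and leukaemia inhibitory factor (LIF) on 0.1% gelatin at 37 C and 5% CO2, with RNeasy used to extract the RNA. RNA of replicate 1 came from 12x10e6 cells, as the labels write it, at 2.4 ug/ul, and RNA of replicates 2 and 3 from 3x10e6 cells each at 3.0 ug/ul. The labels do not say whether replicates were separate cultures or embryos, so the spread among these samples may be technical. The p-values cover that spread alone, for the most part as pooled over all tested probe sets. No untreated or other comparison group was analysed here, and the only contrast the labels record is that of replicate 1 with replicates 2 and 3.

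Chemokines are small secreted proteins that draw leukocytes along a gradient by binding G protein-coupled receptors, and they are classed by the spacing of their first cysteines as CC, CXC, CX3C or XC. Some are made constantly and place cells within tissues, while others are switched on by inflammatory cytokines through the transcription factor NF-kappaB or by interferon. Fibroblasts are a known stromal source of ligands, whereas most of the signalling receptors are known from leukocytes.

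Values are deposited MAS5 signal intensities on a linear scale, and every array had been scaled to a mean near 1500 over its central probe sets. A signal was called above the floor when it exceeded the median of its own array, which lay between 683 and 732 on MOE430A and between 846 and 913 on MOE430B. A median floor places 50% of the probe sets below it, so a gene under it may still be expressed. A signal just above it need not mean expression either. The brightest tryptophan control probe set read 614, 757 and 786 in MOE430A replicates 1, 2 and 3 and 1989 to 2348 on MOE430B. Signals of different probe sets also depend on their oligonucleotides, so a signal is compared only with the same probe set on other arrays or with the floor. In such bulk RNA, fewer cells of a type and less RNA per cell cannot be told apart. All 14 measured fibroblast markers were above the floor, as were 5 of 15 macrophage, 1 of 9 lymphocyte, 1 of 12 neutrophil and mast cell, 5 of 10 platelet, 4 of 12 endothelial and 2 of 10 embryonic stem cell markers. Of all named genes, 54.8% were above it on all 3 arrays of a type, and only the fibroblast list exceeded that share. The pan-leukocyte gene Ptprc was at 56.9, 29.9 and 181 in MOE430A replicates 1, 2 and 3, and Lyz2 at 2279, 2443 and 1367. The macrophage markers above the floor were Csf1r, Lyz2, Cd14, Fcgr1 and Laptm5, and the lymphocyte marker was Cd8a, on MOE430B. Summed over 1 probe set per gene, the macrophage list ran from 9335 to 11570.3 and the lymphocyte list from 2981 to 3763 over the MOE430A arrays. The part of such cells in the chemokine signals was not tested.

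On all 3 arrays of a type, 14 of the 51 genes (27.5%) had a probe set above the floor, against 54.8% of all named genes. By array type the counts were 12 of 50 (24.0%) on MOE430A against 50.1% of all genes, and 3 of 10 (30.0%) on MOE430B against 51.0%. Ligands made up 13 of the 14 genes, from 35 measured, and receptors 1, from 16 measured. Of the probe sets, 45 MOE430A and 6 MOE430B ones were above the floor on no array. The count rests on where the floor is placed. At the 75th percentile of each array 5 MOE430A genes were above it. At a fixed signal of 200 there were 25 on MOE430A and 7 on MOE430B. Shares of all genes at these floors, and of all probe sets above the floor on no array, were not computed. These counts therefore do not tell whether the members differ from other genes.

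**Figure D1:**
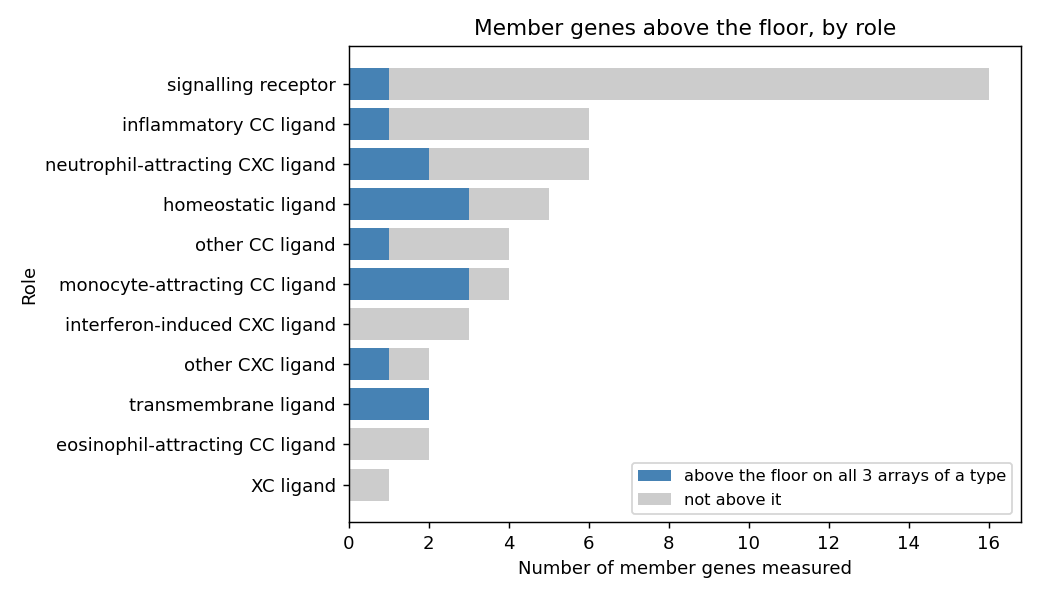
Number of chemokine and receptor genes measured in each role (bar length), with those above the array median on all 3 arrays of a type in blue and the others in grey. The 16 signalling receptors include 1 blue gene, and both transmembrane ligands are blue.

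Among the 5 homeostatic ligands, 3 were above the floor. Cxcl12, the stromal factor that holds blood progenitors and guides germ cells and neurons, gave signals of 13358, 25102 and 22745 in MOE430A replicates 1, 2 and 3 with probe set 1448823_at. Probe set 1417574_at read 3403, 7965 and 5958, and 1439084_at on MOE430B read 1973, 2314 and 3917. Replicate 1 was the lowest array with each of the 3 probe sets. Among all MOE430A probe sets tested, it was the lowest for 35.6%. Its difference from replicates 2 and 3 was -0.84 ± 0.37 (SE) on the log2(signal + 16) scale with the first probe set, which did not pass the test (limma adjusted p = 0.507). The difference was -1.01 ± 0.37 with the second (limma adjusted p = 0.323) and -0.61 ± 0.48 with the MOE430B probe set (limma adjusted p = 0.853). These 3 probe sets read the same RNA samples and are not independent.

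Cxcl14, a chemokine of skin and other epithelia, read 7432, 5364 and 7465 with probe set 1418456_a_at and 3371, 2019.9 and 3095 with 1418457_at. With both, replicate 2 was the lowest array and replicate 1 lay near replicate 3. Cxcl13, which draws B cells through Cxcr5, read 1215, 2214 and 1125, with replicate 2 high and the others close together. Its other probe set was below the floor on every array, at 270, 429 and 395. The remaining homeostatic ligands were Ccl25, of thymus and gut, and Ccl27a, of skin. Ccl25 was at 77.3 to 84.2 on MOE430A and at 1025, 502 and 1207 on MOE430B, where replicate 2 was under the floor. Ccl27a ranged from 108 to 281, all under it.

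The monocyte-attracting CC ligands had 3 of 4 members above the floor. Ccl2, the main ligand of the monocyte receptor Ccr2, read 6637, 4303 and 2879. Replicate 1 was the highest and replicate 3 the lowest, with replicate 2 about midway. The difference between replicate 1 and the others was 0.91 ± 0.38 (SE, log2 scale; 95% interval 0.14 to 1.69), which did not pass (limma adjusted p = 0.450, unadjusted p = 0.0229). Ccl7, which shares that receptor, read 3981, 2878 and 2174, in the same order of arrays as Ccl2 (difference 0.67 ± 0.37, limma adjusted p = 0.700). Ccl8, a ligand of Ccr8 in the mouse, read 1722, 2698 and 2886 and was lowest in replicate 1 (difference -0.69 ± 0.37, limma adjusted p = 0.662). Ccl12, a mouse ligand of Ccr2, was far under the floor at 25.2, 71.0 and 42.0. In the RefSeq gene table these genes lie side by side on chromosome 11 in the order Ccl2, Ccl7, Ccl11, Ccl12, Ccl8 and Ccl1. Of the neighbours, the eosinophil attractant Ccl11 read 107, 141 and 49.5, and Ccl1 read 557, 572 and 576. Of this run of 6 genes, Ccl2, Ccl7 and Ccl8 were above the floor, and the 3 others were not.

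The neutrophil-attracting CXC ligands had 2 of 6 members above the floor, Cxcl1 and Cxcl5. Of the 4 others, Cxcl2, Cxcl3 and Cxcl15 had no probe set above it on all 3 arrays, and Ppbp was above it in replicate 1. Cxcl5, Ppbp, Pf4, Cxcl3, Cxcl15, Cxcl1 and Cxcl2 follow each other on chromosome 5 in the RefSeq table with no other gene between them. The 250 bases before the transcription start are shown for Cxcl1, which is above the floor, for Cxcl2 and Cxcl3, which are not, and for Ppbp, the member that differed between replicates. They are from RefSeq on GRCm38.p6, plus strand, 5′ to 3′, at chr5:90890995-90891244, chr5:90903649-90903898, chr5:90785851-90786100 and chr5:90768268-90768517, and were chosen after the signals were seen. Capitals mark the 11-base run GGGAATTTCCC or the TATA motif TATAAA.
Cxcl1: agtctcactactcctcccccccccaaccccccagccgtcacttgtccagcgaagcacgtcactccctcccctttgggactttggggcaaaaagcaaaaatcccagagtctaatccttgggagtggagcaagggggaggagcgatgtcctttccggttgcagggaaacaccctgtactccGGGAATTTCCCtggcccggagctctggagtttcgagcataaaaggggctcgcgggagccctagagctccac
Cxcl2: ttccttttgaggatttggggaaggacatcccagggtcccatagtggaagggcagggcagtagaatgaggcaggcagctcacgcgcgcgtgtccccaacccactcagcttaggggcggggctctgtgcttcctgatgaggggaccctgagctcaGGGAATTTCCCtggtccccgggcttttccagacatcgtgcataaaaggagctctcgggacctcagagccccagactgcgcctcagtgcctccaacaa
Cxcl3: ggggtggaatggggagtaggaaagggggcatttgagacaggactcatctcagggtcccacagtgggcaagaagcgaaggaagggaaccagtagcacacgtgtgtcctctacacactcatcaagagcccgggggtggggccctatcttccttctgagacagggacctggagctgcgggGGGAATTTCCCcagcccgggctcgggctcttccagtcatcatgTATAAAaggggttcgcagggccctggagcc
Ppbp: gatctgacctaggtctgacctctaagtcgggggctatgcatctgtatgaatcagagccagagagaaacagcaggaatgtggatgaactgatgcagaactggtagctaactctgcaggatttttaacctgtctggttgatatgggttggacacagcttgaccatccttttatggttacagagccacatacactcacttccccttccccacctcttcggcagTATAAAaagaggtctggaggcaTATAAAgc

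The 11-base run lies at -71 to -61 from the start in Cxcl1, at -97 to -87 in Cxcl2 and at -73 to -63 in Cxcl3. It was present in 14 of 32851 promoters of that length (0.0426%), 3 of them of chemokine genes. The run holds the kappaB consensus on both strands, overlapping with itself. TATAAA, searched on both strands, is at -30 to -25 in Cxcl3 and in Ppbp, and again at -8 to -3 in Ppbp. A promoter was in the table for 38 of the 51 genes. TATAAA was in 3 of 8 genes above the floor and in 9 of 30 not above it, against 12.4% of all promoters. The kappaB consensus was in 1 of 8 and in 9 of 30, against 7.25% of all promoters. A match describes letters in this window and not a site that is bound.

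Cxcl1, the keratinocyte-derived attractant that binds Cxcr2, read 9517, 9458 and 7019 with probe set 1441855_x_at on MOE430B. Probe set 1457644_s_at read 5007, 3971 and 6049 on the same arrays. The probe sets did not rank the arrays alike, and replicate 1 differed from the others by 0.22 ± 0.40 and 0.03 ± 0.44 on the log2 scale (limma adjusted p = 0.930 and 0.993). The sign of the smaller one turned without replicate 2, to -0.27. A probe set on MOE430A, 1419209_at, read 533, 835 and 621 and was above the floor in replicate 2 only. The suffixes x and s mark probe sets that can match further transcripts, so how much of the MOE430B signal is Cxcl1 cannot be told from these arrays. Cxcl5, also a ligand of Cxcr2, read 1693, 1933 and 965 with replicate 3 the lowest (difference 0.31 ± 0.40, limma adjusted p = 0.951, and -0.19 without replicate 3). Cxcl2 read 248, 277 and 422, under the floor throughout. Cxcl3, measured on MOE430B, read 814, 60.4 and 303, also under it. Cxcl15, a chemokine of lung epithelium, read 201, 1821 and 594 on MOE430B, and 56.0, 283 and 654 on MOE430A. It was above the floor in MOE430B replicate 2 alone, and on each array type replicate 1 was the lowest. It lay under the filter on mean signal and was not tested.

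Ppbp, whose product is cut to a neutrophil attractant stored in platelet granules, was the member that passed the test between replicates. Its probe set, 1418480_at, read 2212 in replicate 1 and 424 and 676 in replicates 2 and 3. Replicate 1 was above the floor and both others below it. It was also the highest array for 33.2% of all MOE430A probe sets tested. Ppbp passed the filter on mean signal only through replicate 1, the array called higher, so its call is no independent support. The difference was 2.01 ± 0.38 on the log2 scale (95% interval 1.23 to 2.80, limma adjusted p = 0.00613), higher than 2 of 2 arrays. As the signal was below the floor in the pair, the fold is a bound, 3.13-fold against the geometric mean of their floors. The call was lost without the filter on low signals (limma adjusted p = 0.777) and after quantile normalization (limma adjusted p = 0.293), where no probe set of the array passed, and it held in 3 other settings (limma adjusted p from 0.00358 to 0.00776). MOE430A replicates 1 and 2 were scanned on the same day at the same fluidics station, and replicate 3 differed in both. The Ppbp difference was 2.34 between replicates 1 and 2 and 1.69 between replicates 1 and 3. The part of scan day or station in it was not tested. Pf4, the neighbour of Ppbp and another platelet chemokine, read 734, 285 and 757, low in replicate 2 and about level in the others. The platelet markers above the floor were Itga2b, Gp1bb, Gp9, Treml1 and F2rl2, while Vwf read 16.7, 14.1 and 16.3. Itgb3, an integrin chain of platelets and other cells, read 116, 102 and 114 on MOE430A, and 1529, 156 and 301 on MOE430B, where it was above the floor in replicate 1 alone. Gp6, a platelet collagen receptor measured on MOE430B, read 1263, 604 and 1055, and Gp5, a platelet glycoprotein, 362, 930.2 and 1095 on MOE430A. The platelet markers thus did not move one way: some were highest and some lowest in replicate 1. Summed over the 9 genes with a MOE430A probe set, the signal was 7194, 7945 and 9433. The part of platelet RNA in the Ppbp difference was not tested.

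**Figure D2:**
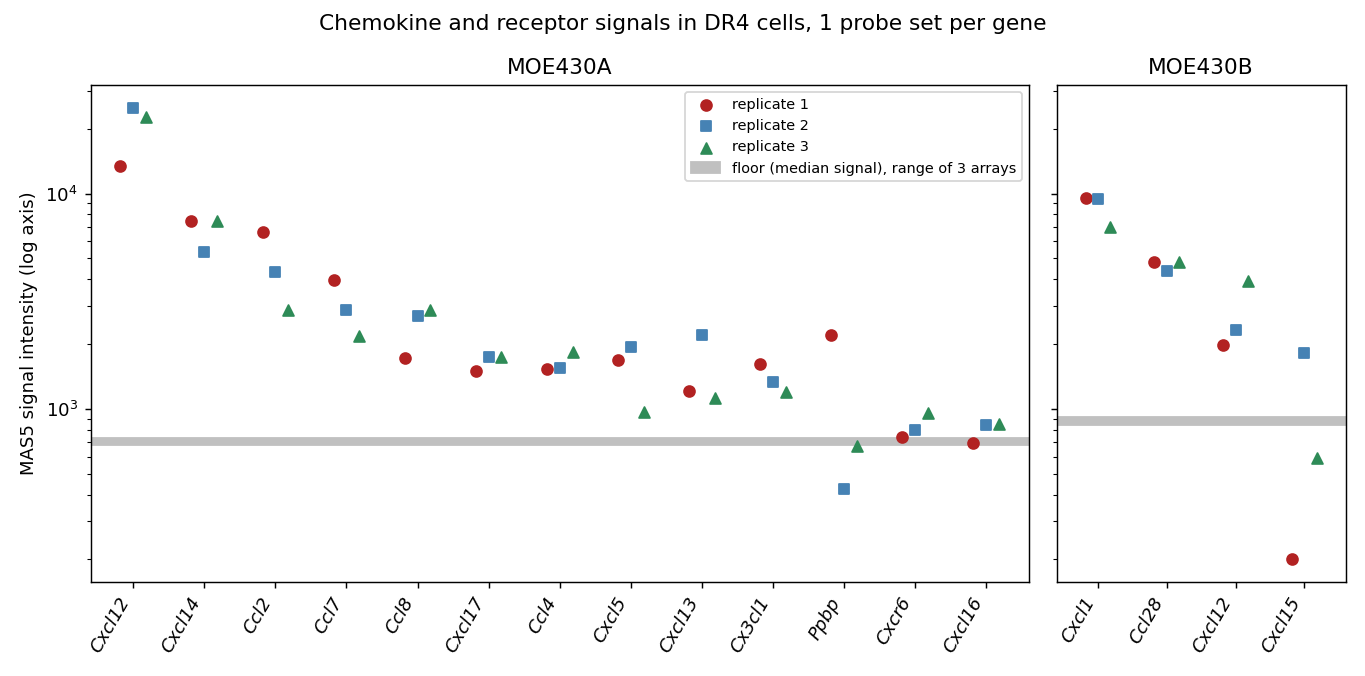
MAS5 signal intensity (log axis) of each gene above the floor, plus Ppbp and Cxcl15, in replicates 1 (circles), 2 (squares) and 3 (triangles), with 1 probe set per gene on each array type and the range of the 3 floors as a grey band. Ppbp replicate 1 stands at 2212 over the band and the others at 424 and 676 under it, and the order of genes ranks signals of different probe sets, not transcripts.

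The inflammatory CC ligands had 1 of 6 members above the floor. Ccl4, a macrophage inflammatory protein, read 1537, 1542 and 1828, a narrow range with replicate 3 on top. Ccl5, a T cell attractant also known as RANTES, read 603, 1041 and 774, under the floor in replicate 1 and above it in the others. The geometric mean of replicates 2 and 3 was 1.31-fold the floor of replicate 1, a lower bound for the pair and not for each array. The difference of -0.56 ± 0.37 on the log2 scale did not pass. Ccl1, Ccl3, Ccl6 and Ccl9 were under the floor on every array, and with Ccl5 the 7 probe sets of these genes spanned 24.2 to 1041.

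Interferon-induced CXC ligands, which call activated T cells through Cxcr3, were not above the floor in any of 3 genes. Cxcl10 read 188, 649 and 353, and the 5 probe sets of Cxcl9, Cxcl10 and Cxcl11 lay under the floor on every array. Cxcl11 came nearest, at 683 in MOE430A replicate 2, just under that array's median. The eosinophil attractants Ccl11 and Ccl24 ranged from 49.5 to 270, and Xcl1, an attractant of dendritic cells, from 34.2 to 226. None of these 3 genes was above the floor on an array.

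Both transmembrane ligands were above the floor. Cx3cl1, or fractalkine, which tethers cells bearing Cx3cr1, read 1614, 1326 and 1201 with probe set 1415803_at (difference 0.35 ± 0.37 on the log2 scale, limma adjusted p = 0.923). Its 3 other probe sets were under the floor on every array. Cxcl16, the ligand of Cxcr6, read 696, 845 and 855, close to the floor, and a second probe set read 26.7, 250.4 and 382. Among the other ligands, Cxcl17, a mucosal chemokine, read 1498, 1748 and 1745, the narrowest spread of the MOE430A probe sets above the floor (SD 0.13 on the log2 scale). Ccl28, a mucosal ligand of Ccr10, read 4820.3, 4357 and 4796 on MOE430B, again a narrow spread (SD 0.08). Both Ccl28 probe sets on MOE430A were under the floor, between 171 and 308. Ccl17, Ccl20 and Ccl22, ligands for T cells and dendritic cells, ranged from 32.9 to 653 and were under the floor throughout.

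Among the 16 signalling receptors, Cxcr6, which is known from T cells and natural killer T cells, was the gene above the floor on all 3 arrays. It read 738, 799 and 959 with 1425832_a_at, a small step over the floor, and 187, 8.72 and 25.3 with a second probe set. Ccr6, the receptor of Ccl20, read 1119, 613 and 1386, with replicate 2 under the floor (difference 0.27 ± 0.41 on the log2 scale, limma adjusted p = 0.963, and -0.30 without replicate 2). Ccr10 read 453, 520.2 and 1151, Ccr1l1 read 489, 513 and 818, and Cxcr3 read 786, 607 and 570.2, each above the floor on 1 array. Cxcr4, the signalling receptor of Cxcl12, read 141, 30.1 and 51.8. The other receptors, Ccr1, Ccr2, Ccr3, Ccr4, Ccr7, Ccr8, Ccr9, Cx3cr1, Cxcr2 and Cxcr5, were under the floor on every array.

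Known ligand and receptor pairs were read side by side from a list of pairs, of which 35 had both genes measured. In 11 the ligand alone was above the floor, among them Ccl2 with Ccr2, Cxcl1 with Cxcr2 and Cxcl12 with Cxcr4. In 2 both were, Cxcl16 with Cxcr6 and Cxcl12 with the scavenging receptor Ackr3. In 1 the receptor alone was above it, Ackr3 with Cxcl11, and in 21 neither was. Of the scavenging receptors the list held Ackr3 and left out Ackr1 and Ackr2, so the counts depend on the list. Pairs share genes and are not independent.

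**Figure D3:**
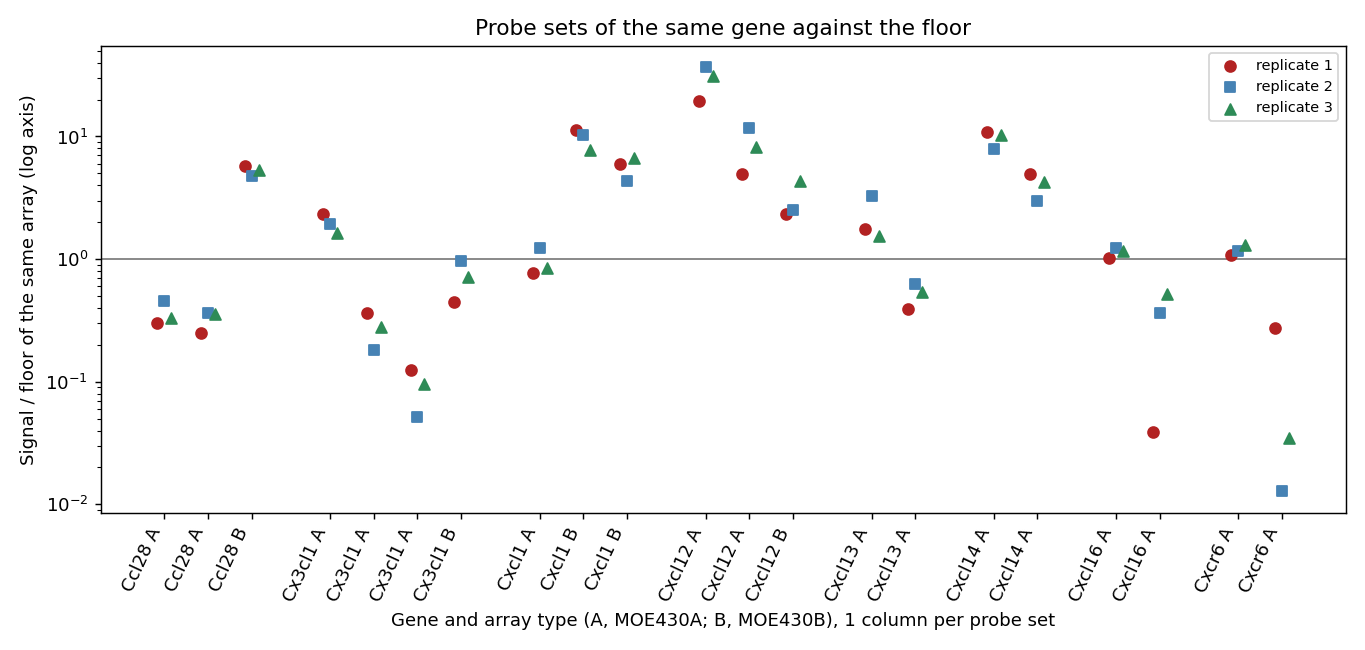
Signal divided by the floor of its own array (log axis) for the probe sets of genes above the floor that have more than 1, with replicates 1 to 3 as circles, squares and triangles and the line at the floor. Cxcl12 and Cxcl14 lie above the line with all of their probe sets, whereas Ccl28, Cx3cl1, Cxcl1, Cxcl13, Cxcl16 and Cxcr6 have probe sets on both sides.

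Of the 18 genes with more than 1 probe set, 2 were above the floor by all of them, 6 by some and 10 by none. Probe sets of 1 gene thus gave unlike answers in 6 of the 8 genes above the floor for which this could be read. On MOE430A the 14 member probe sets above the floor, of 12 genes, had a median log2 SD over replicates of 0.40 (range 0.13 to 0.62). Over all 9624 such probe sets the median was 0.24. Of the 14, 9 lay above that value, against 50% of all by definition. The members' median was 0.28 without replicate 1, 0.24 without replicate 2 and 0.33 without replicate 3. A median over all probe sets is not given for 2 arrays, so these values have no counterpart. On MOE430B the median over 3 arrays was 0.28 for the 4 members and 0.28 for all.

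Replicate 1 was set against replicates 2 and 3 over all probe sets whose mean signal passed the floor. That leaves 1 residual degree of freedom, from replicates 2 and 3, and replicate 1 is taken to vary as they do. To this limma adds a variance pooled over all tested probe sets, weighted as 26.5 degrees of freedom on MOE430A and 3.47 on MOE430B. The SEs on MOE430A are therefore largely shared and are not the spread of a gene's own replicates. On MOE430A 17 of 67 members entered (15 genes), and 1, Ppbp, passed at a limma adjusted p of 0.05, higher in replicate 1. Over all 11086 probe sets tested, 0.704% passed in either direction and 0.216% as higher in replicate 1. After Ppbp, the largest differences among the members were those of Cxcl12 (-1.01 and -0.84) and Ccl2 (0.91), which did not pass. Replicate 1 was the highest array for 5 of the 17 (29.4%, against 33.2% of all tested) and the lowest for 8 (47.1%, against 35.6%), shares that are read as descriptions. The median difference was -0.13 for the members and -0.01 for all.

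On MOE430B 4 of 12 members entered, of Cxcl1, Ccl28 and Cxcl12, and limma called 0 of them, with 0 at an unadjusted p of 0.05. Over all 10615 probe sets there 0% were called, with 766 at an unadjusted p of 0.05 and a lowest limma adjusted p of 0.412. On that type replicate 1 was run at 1 fluidics station and replicates 2 and 3 at another, so the station's part and that of the replicate cannot be told apart. On MOE430A replicate 3 alone differed in scan day and station.

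**Figure D4:**
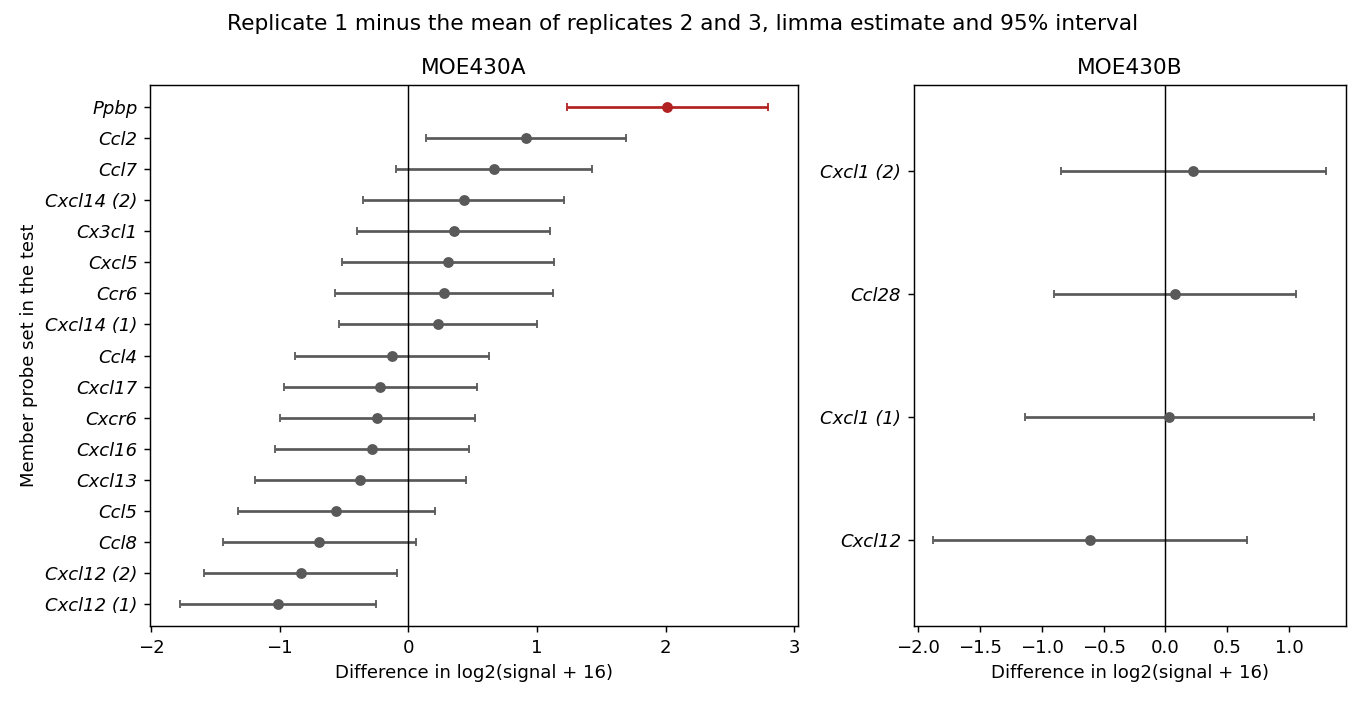
Difference in log2(signal + 16) between replicate 1 and the mean of replicates 2 and 3 for each member probe set tested, with the limma estimate as a point and its 95% interval as a bar, on MOE430A (17 probe sets) and MOE430B (4). Ppbp, in red at 2.01, is the probe set past the adjusted threshold, and the 2 Cxcl12 probe sets lie lowest on MOE430A at -0.84 and -1.01.

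The wider pathway was read from 4 lists, in which any probe set of a gene on either array type could place it above the floor. By that rule 54.8% of all named genes were above it. The first of these joined atypical receptors, which bind chemokines without G protein signals, with other genes, among them Xcr1, Cmklr1, Gpr35 and Pitpnm3. Of its 9 genes, 4 were above the floor (Ackr1, Ackr2, Ackr3 and Pitpnm3). None of the 4 tested passed in limma. Ackr3, which scavenges Cxcl12, read 876, 1062 and 2334, highest in replicate 3 as was Cxcl12 on MOE430B but not on MOE430A. Ackr1, the Duffy receptor, read 1212, 930.4 and 1042, Ccrl2 642, 495 and 819, and Ackr2, a scavenger of inflammatory CC chemokines, 467, 759 and 708 on MOE430A and 2310, 1132 and 1525 on MOE430B.

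Of 14 measured G proteins, kinases and arrestins that act under the receptors, 11 were above the floor and none of the 11 tested passed in limma. The inhibitory G protein subunit Gnai2 read 19030.5, 17371 and 16192, and Gnai3 read 7764, 7210 and 7204. The beta subunits Gnb1 (14865, 15899 and 14142) and Gnb2 (10817, 10332 and 10423) also stayed within a narrow range. Of 14 NF-kappaB factors and feedback genes, 10 were above the floor and none of the 11 tested passed in limma. The inhibitor Nfkbia read 8765, 9583 and 8457, the subunit Rela 4892, 5129 and 4647, the mRNA-decay factor Zfp36 1810.1, 1746 and 2538, and the kinase scaffold Ikbkg 2676, 1215 and 1524.

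Of 19 inducing cytokines and their receptors, 11 were above the floor, and of 13 tested Il1r1 alone passed in limma, as lower in replicate 1. Over all MOE430A probe sets tested, 0.487% passed as lower. Il1r1, the receptor through which interleukin-1 induces chemokines, read 294, 1255 and 1864. It was under the floor in replicate 1 and above it in the others. Its geometric mean over replicates 2 and 3 was 2.23-fold the floor of replicate 1, a lower bound for the pair. Its difference was -2.32 ± 0.38 on the log2 scale. Its call too was lost without the filter (limma adjusted p = 0.730) and after quantile normalization (limma adjusted p = 0.221), and it held in 3 other settings (limma adjusted p from 0.000271 to 0.00187). Il1r1 entered the test only through replicates 2 and 3, the group that read higher, so its call is no independent support. A second Il1r1 probe set on MOE430B was under the floor, between 21.6 and 30.8. The tumour necrosis factor receptor Tnfrsf1a read 9377, 9791 and 10491, and the interferon gamma receptor chain Ifngr2 2132, 2463 and 2055 with one probe set and 2718, 1627 and 2718 with another. The shared receptor chain Il6st, which also carries the LIF signal, read 4210.3, 9633 and 12786 and was lowest in replicate 1 without passing (limma adjusted p = 0.0858). Il1rn, the interleukin-1 receptor antagonist, read 1613, 1959 and 3949, highest in replicate 3.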

How the data were processed

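Signal intensities of 6 arrays (MOE430A and MOE430B, 3 replicates each) were used as deposited, on a linear scale; MAS5 is named in the submitters' processing notes. The sources used here do not give its version or scaling. The deposited instrument records gave only scan day and fluidics station, per the file headers. No level was compared across array types. Genes were named from the platform annotation (20380 of 22626 MOE430A and 14661 of 22511 MOE430B probe sets had 1 symbol), without 64 controls on each. A floor was set at each array's median.

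Replicate 1 was tested against replicates 2 and 3 with limma 3.58.1 (R 4.3.3; lmFit, eBayes) on log2(signal + 16), computed here from the deposited signals, over probe sets with a mean log2 signal above the mean log2 floor, with Benjamini-Hochberg adjustment over all of them and a threshold of 0.05. This scale understates changes of dim genes. The fit was tested on simulated data. Tables were made with Python 3.11.15 and pandas 2.3.3. The small number of arrays limits the precision.

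Named with values in every array were members above the floor on all 3 arrays of a type, members past the threshold, and members with an array above the floor at least 4-fold from another; of each pathway list, the 4 genes with the highest MOE430A mean and any past the threshold. Other members named with values were chosen after these were seen. Promoters came from RefSeq (GRCm38.p6), cut to 250 bases before the start. Members and lists were chosen with earlier results of these data known. Alternatives were other floors, pseudocounts, normalization, no filter, a trended prior and leaving out replicates.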

Additional observations from a re-analysis of the deposited data

How the results depend on the processing

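The counts of genes above the floor moved with the floor: from 12 to 5 on MOE430A at the 75th percentile, and to 25 on MOE430A and 7 (from 3) on MOE430B at a fixed signal of 200. A floor at the brightest tryptophan control gave 12 and 2. Shares of all genes at these other floors were not computed. Leaving out 1 replicate gave 12 to 14 genes on MOE430A and 3 to 4 on MOE430B. The MOE430A count of 1 member past the threshold became 0 without the filter on low signals and 0 after quantile normalization, where limma called 0 probe sets in all (1297 and 754 at an unadjusted p of 0.05). The count over all MOE430A probe sets went from 78 to 167 with a trended prior. Without replicate 2 or 3 there is no residual degree of freedom and so no test, and without replicate 1 no comparison; the Ppbp difference was then 1.69 and 2.34. The median SD ran from 0.24 to 0.33 on MOE430A (0.40 with 3 arrays) and from 0.13 to 0.37 on MOE430B (0.28) when 1 replicate was left out. Leaving out 1 replicate turned the sign of 5 differences, none past the threshold. Those without replicates 2 and 3 ran from -0.30 to 0.85 for Ccr6, from -0.27 to 0.33 for Cxcl1 (1457644_s_at), from -0.86 to 0.11 for Cxcl13, from -0.0064 to 0.47 for Cxcl14 (1418456_a_at) and from -0.19 to 0.80 for Cxcl5. Quantile normalization turned that of Cxcl1 (1457644_s_at) to -0.0040. The other tested members kept their sign in the settings run. No paired analysis was possible because replicate numbers are shared only between the array types, which were not compared with each other. Signals near or under the floor carry bounds only.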
